A study of Mus musculus with 6 samples.

Results

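The genes of cytosolic and mitochondrial ribosomal proteins were examined in RNA-seq of muscle stem cells (MuSCs), the stem cells that lie along skeletal muscle fibers. Members were chosen by their symbols, which start with Rpl, Rps, Mrpl or Mrps followed by a number, or, for Rpsa and the stalk proteins, by a or p. The Rps6k kinases and symbols ending in -ps were left out. This rule found 165 of the 18943 genes in the deposited table, and used no measured value. By symbol there were 88 genes of the cytosolic ribosome, 52 for its large and 36 for its small subunit. Another 77 had symbols of the mitochondrial ribosome, 48 large and 29 small. Membership rests on the symbol alone. Of the cytosolic genes, 6 are annotated as processed pseudogenes. Rps19bp1 entered by its symbol although it encodes a protein that binds a ribosomal protein. The paralogs Rpl3l, Rpl10l, Rpl39l and Rps27rt were not analysed here.

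Cytosolic ribosomes translate the mRNAs of the nuclear genome, and mitochondrial ribosomes translate the few mRNAs of the mitochondrial genome, which encode subunits of the respiratory chain. The proteins of both are made from nuclear genes, and mitochondrial ribosomal proteins are imported after their synthesis. Most cytosolic ribosomal protein mRNAs begin with a C followed by a run of pyrimidines, the terminal oligopyrimidine (TOP) motif, through which mTOR signaling controls their translation. Quiescent MuSCs make little protein, and ribosome production increases when they leave quiescence and divide.

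The cells came from wild-type C57BL/6 mice aged 8 weeks, were purified by flow cytometry and were cultured for 5 days with the solvent DMSO, with 100 nM endothelin-3 (ET-3) or with 100 nM neurotensin (NT). ET-3 and NT are peptides that act on G protein-coupled receptors. The methods state higher doses than these labels. Each group had 2 libraries, although the series speaks of triplicates, and the labels do not say whether libraries came from separate cultures or animals, so that p-values measure the spread between these libraries only.

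Printed here are the starts of members whose changes are described below, with the cytosolic genes first. The sequences are the 80 bases from 60 before to 20 after the RefSeq transcription start on GRCm38.p6. Capitals mark a run of at least 6 C or T that reaches to within 5 bases of the start. RefSeq starts were at hand for 64 of the 88 cytosolic and 68 of the 77 mitochondrial genes.
Rps10, chr17:27635225-27635304, minus strand: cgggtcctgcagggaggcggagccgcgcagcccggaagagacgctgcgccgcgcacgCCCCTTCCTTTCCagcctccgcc
Rps18, chr17:33955646-33955725, minus strand: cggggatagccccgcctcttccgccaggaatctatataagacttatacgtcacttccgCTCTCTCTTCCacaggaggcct
Rps24, chr14:24490618-24490697, plus strand: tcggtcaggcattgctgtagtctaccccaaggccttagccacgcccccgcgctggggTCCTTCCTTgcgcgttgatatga
Mrpl34, chr8:71464866-71464945, plus strand: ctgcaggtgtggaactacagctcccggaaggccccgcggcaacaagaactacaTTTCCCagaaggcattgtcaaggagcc
Mrpl20, chr4:155802818-155802897, plus strand: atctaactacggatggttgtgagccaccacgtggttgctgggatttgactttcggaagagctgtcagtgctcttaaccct
Mrps6, chr16:92058276-92058355, plus strand: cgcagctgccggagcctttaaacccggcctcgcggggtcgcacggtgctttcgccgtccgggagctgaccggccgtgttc

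The run was 13 bases long in Rps10, 11 in Rps18 and 9 in Rps24, and in each of these genes it covered the start printed. A second RefSeq start of Rps24 had no run. In Mrpl34 a run of 6 bases lay just before the start, and neither Mrpl20 nor Mrps6 had one. Such a run was found in 32 of 64 cytosolic genes and in 18 of 68 mitochondrial genes (26.5%), against 24.0% of all genes with a RefSeq start. A gene with several starts was counted if any of them had a run. Counted in the same way, a C at the start itself was found in 23 of 64 cytosolic (35.9%) and 11 of 68 mitochondrial genes. It was found in 18.9% of all genes with a RefSeq start. A run as defined here thus does not show that an mRNA begins with the TOP motif. The letters CCGGAAG, which ETS factors can bind, were found on either strand in the 250 bases before the start in 18 of 64 cytosolic (28.1%) and 17 of 68 mitochondrial genes, against 7.83% of all genes with a RefSeq start and 15.3% of the tested genes that are no member. Their reverse complement can overlap a pyrimidine run. The letters ATGGCG, the core of a YY1 site, were found in 15.6% of the cytosolic and 5.88% of the mitochondrial genes, against 6.53% of all genes and 10.3% of the tested genes that are no member.

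The data are whole numbers per gene and library, which were read counts multiplied by 1 factor per library. The factors, estimated from the values, came to 0.983 and 1.15 (DMSO), 1.19 and 1.09 (ET-3), and 0.855 and 0.781 (NT). Divided by them, the values gave 4646637 and 4015094 reads on genes (DMSO), 3628891 and 3931934 (ET-3), and 4986831 and 5396233 (NT). The NT libraries were thus the deepest and the ET-3 libraries the shallowest.

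Other properties of the cultures moved with the groups. Each ligand lowered all 12 muscle differentiation markers tested, and their summed value was 36580 and 40594 in DMSO against 1864 to 2183 in ET-3 and 1940 to 2389 in NT libraries. Of 12 proliferation markers, 12 were higher under ET-3 and 11 under NT. Among all tested genes, 30.6% were higher and 33.2% lower under ET-3, and 29.7% and 32.5% under NT. The MuSC and myoblast markers Pax7, Myf5, Myod1, Itga7, Vcam1, Cdh15, Sdc4 and Des were detected in every library. Of these 8, 3 were higher and 3 lower under ET-3, and 3 higher and 5 lower under NT, while Calcr had values of at most 3. Markers of other cells had low summed values. They were 62 to 128 for endothelial genes (2 higher and 1 lower of 4 under ET-3, 3 and 1 under NT) and 55 to 197 for fibroadipogenic genes (0 and 2 of 3, 1 and 2). They were 21 to 45 for macrophage and leukocyte genes (0 called of 2) and 17 to 44 for Schwann cell genes (0 and 1 of 1, 0 and 0). Those of smooth muscle and pericytes, a list that shares Des with muscle, summed to 4930 and 5652 with DMSO and to 2125 to 2450 with the ligands, and 5 of 5 were lower under each ligand, while Myh11 and Kcnj8 had values of at most 4. The part of these shifts in the results below was not tested. In bulk RNA, fewer cells of a type and less RNA per cell cannot be told apart.

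As a share of all values, the cytosolic genes held more of the ET-3 libraries than of the others. Their sum was 0.553% and 0.581% of the library total in DMSO, 0.733% and 0.700% in ET-3 and 0.623% and 0.597% in NT libraries. The sum of the mitochondrial genes was 0.383% and 0.381% in DMSO, 0.458% and 0.447% in ET-3 and 0.439% and 0.428% in NT libraries. In both sets all 4 ligand libraries lay above both DMSO libraries, and both ET-3 libraries lay above both NT libraries. The mean share was 0.567% ± 0.0200 (SD, n = 2) in DMSO, 0.716% ± 0.0229 in ET-3 and 0.610% ± 0.0184 in NT libraries for the cytosolic genes. For the mitochondrial genes it was 0.382% ± 0.00155, 0.452% ± 0.00769 and 0.433% ± 0.00733. The log2 ratio of the mitochondrial to the cytosolic sum was -0.53 and -0.61 in DMSO, -0.68 and -0.65 in ET-3 and -0.51 and -0.48 in NT libraries. By these sums the ET-3 libraries had the lowest and the NT libraries the highest ratio. The log2 ratio of the median levels per length was -0.69 and -0.83 in DMSO, -0.73 and -0.81 in ET-3 and -0.61 and -0.56 in NT libraries, so that by this measure ET-3 lay within the range of DMSO.

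**Figure D1:**
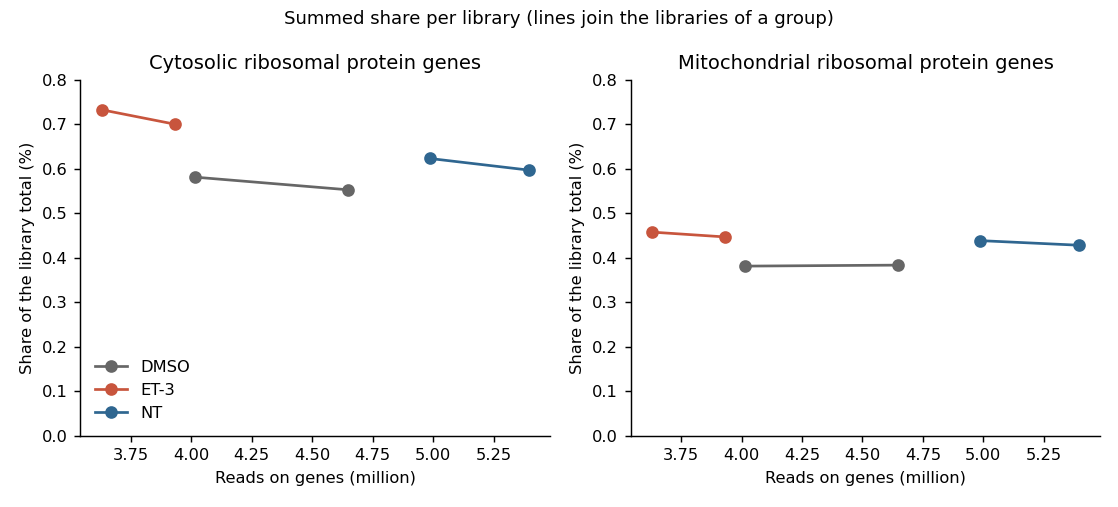
Share of each library's total value held by the cytosolic (left) and the mitochondrial (right) ribosomal protein genes, in percent, against the reads on genes of that library. Each point is 1 library and lines join the 2 libraries of a group. The cytosolic share runs from 0.553% to 0.733% and is lower in the deeper library of each group.

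Within each of the 3 groups the deeper library had the lower cytosolic share. For the mitochondrial genes this held for ET-3 and NT and not for DMSO. Depth differed between ET-3 and NT more than within either, and its part in the difference between the ligands was not tested.

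Levels per length ordered the genes as follows. The median cytosolic gene stood at 30.5 and 32.4 (DMSO), 40.3 and 39.3 (ET-3), and 34.9 and 33.6 (NT) on the scale of RPKM, reads per exonic kilobase relative to the library total. The median mitochondrial gene stood at 18.9 and 18.3, 24.4 and 22.4, and 22.8 and 22.9. The cytosolic gene with the highest level was Rplp1, a protein of the stalk that recruits translation factors, with a mean of 131 over the 6 libraries on this scale. It was followed by Rps15, Rpl4, Rpl8 and Rpl36 with 127, 119, 112 and 111. The ranges of these 5 genes over the libraries overlapped. Lengths were those of all annotated exons of a gene together, so that this order depends on the annotation. In the mitochondrial set Mrpl12, the stalk protein of the mitochondrial ribosome, came first with 64.2, followed by Mrpl34, Mrpl2, Mrpl28 and Mrpl54 with 57.4, 54.8, 54.8 and 49.3. Reads that aligned to several places were left out by the authors, and this bears on the cytosolic genes most. Of the 75-base windows of their transcripts, a median of 19.1% also occur in another annotated gene, mostly pseudogenes, and over 10% do in 65 of the 85 genes tested. The median for mitochondrial genes was 0.41%, with over 10% in 17 of 77. Reads from such windows may be missing from the levels above, which was not measured. The pseudogene members Rps3a2 (86.4% shared), Rpl6l and Rps3a3 are uncertain.

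Differential expression was then tested with limma on log2(value + 1) over the 13921 genes whose mean value was 5 or more. Of the members, 162 passed this filter, 85 cytosolic and 77 mitochondrial. The 3 others, Rpl32l, Rpl6l and Rps3a3, had values of at most 7. A call needed p of at most 0.05 after Benjamini-Hochberg adjustment, without a threshold on the size of the change unless one is named.

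Most cytosolic ribosomal protein genes had slightly higher values under ET-3. Of 85 genes, 59 rose and 2 fell, against 30.6% of all tested genes called higher and 33.2% called lower. Their median log2 fold change was 0.26, with quartiles of 0.18 and 0.32, while the median of all tested genes was -0.01. In 77 of the 85 genes both ET-3 libraries lay above both DMSO libraries, which was the case for 38.9% of all tested genes, and in 2 genes both lay below (40.7% of all). The large subunit (38 of 50 higher, median 0.27) and the small subunit (21 of 35, median 0.25) had like medians. With all libraries scaled to their totals the median of all tested genes was 0.08 rather than -0.01. The count of 59 became 34 without DMSO replicate 1, 32 without ET-3 replicate 1, 39 after removal of a trend against coverage, and 8 when the libraries of each ligand were averaged and counted as 1 sample.

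The mitochondrial set moved less under ET-3. Of 77 genes 32 rose and 1 fell, against 30.6% and 33.2% of all tested genes, and the median log2 fold change was 0.14. Both ET-3 libraries lay above both DMSO libraries in 48 genes and below in 7, against 38.9% and 40.7% of all tested genes. The median was 0.13 for the 48 large subunit genes, 19 of which rose, and 0.18 for the 29 small subunit genes, 13 of which rose. The number that rose was 18 to 20 without either ET-3 or either DMSO library, and 5 with the ligand libraries averaged.

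Under NT the cytosolic set showed no common direction. Of 85 genes 10 rose and 10 fell, fewer than the 29.7% higher and 32.5% lower among all tested genes, and the median log2 fold change was -0.01, equal to the median of all genes. Both NT libraries lay above both DMSO libraries in 28 genes and below in 23, against 38.9% and 41.7% of all tested genes. When the libraries were scaled to their totals the median of the set was 0.10 and so was that of all genes, with 28 genes higher and 1 lower. Without DMSO replicate 2 or without NT replicate 2 the number that fell was 1, and without NT replicate 1 it was 5, as was the number that rose. Of the 77 mitochondrial genes, 17 rose and 5 fell under NT, with a median of 0.05, and 33 had both NT libraries above and 15 both below the DMSO libraries. The number that rose was 9 without DMSO replicate 2, 11 without NT replicate 2 and 3 without NT replicate 1.

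**Figure D2:**
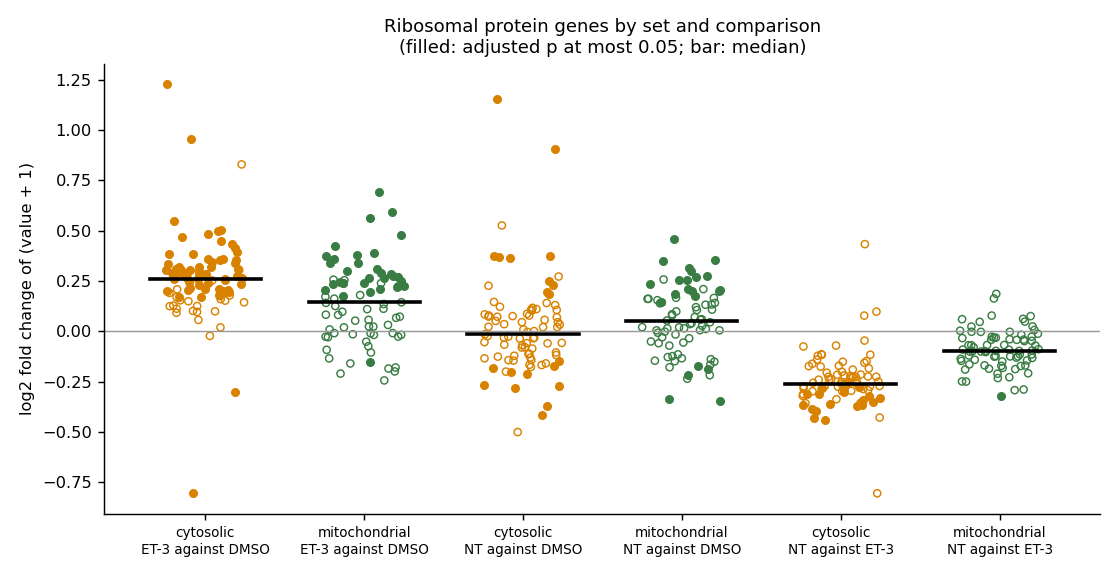
log2 fold change of (value + 1) for each tested ribosomal protein gene, by set (85 cytosolic, 77 mitochondrial) and comparison. Filled points passed an adjusted p of at most 0.05, open points did not, and bars are medians. The cytosolic medians are 0.26, -0.01 and -0.26 and the mitochondrial ones 0.14, 0.05 and -0.10, in the order of the panels from left to right (each ligand against DMSO, then NT against ET-3).

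At a change of at least 2-fold, Rps10 was the only member called in either comparison, where 6.62% of all tested genes were higher under ET-3 and 7.3% under NT (14.9% and 13.2% lower). Between NT and ET-3 no member reached 2-fold, as 0.0503% of all genes did upward and 0.0287% downward. Rps10 encodes a protein of the small subunit. Its values were 32 and 24 in DMSO, 61 and 72 in ET-3 and 59 and 67 in NT libraries. The ligand libraries did not overlap with the DMSO libraries, while those of ET-3 and NT overlapped. The log2 fold change was 1.23 ± 0.21 (SE, n = 2 per group; adjusted p = 0.000474, limma with Benjamini-Hochberg adjustment) under ET-3 and 1.15 ± 0.21 (adjusted p = 0.000753) under NT. These values correspond to 21 to 86 reads per library, so that Rps10 is among the least covered members. Of its 2343 windows 447 (19.1%) occur in other genes, and 404 of these occur in the gene RPS10-NUDT3. Per the methods, reads on several genes were left out too. The values may thus miss part of the Rps10 mRNA, which was not tested. Without DMSO replicate 2 the change under NT was 0.95, below 2-fold.

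Other small subunit genes rose under both ligands by less. Rps19, mutated in Diamond-Blackfan anemia, had values of 269 and 285 in DMSO, 428 and 385 in ET-3 and 363 and 356 in NT libraries. The log2 changes were 0.55 ± 0.07 under ET-3 (adjusted p = 5.82e-05, limma, Benjamini-Hochberg) and 0.38 ± 0.07 under NT (adjusted p = 0.000835). Rps24, another gene of that disease, had 584 and 568 in DMSO, 836 and 791 in ET-3 and 760 and 736 in NT libraries, changes of 0.50 ± 0.05 and 0.38 ± 0.05 on the log2 scale. In both genes the libraries fell into the order DMSO, NT, ET-3 without overlap. Rps18, which lies in the head of the small subunit, had 245 and 264 in DMSO, 382 and 341 in ET-3 and 332 and 323 in NT libraries, changes of 0.50 ± 0.07 and 0.36 ± 0.07. The difference between NT and ET-3 was not called in any of these genes; its 95% interval was -0.33 to -0.02 for Rps19, -0.23 to -0.01 for Rps24, and -0.30 to 0.02 for Rps18.

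Among large subunit genes, Rpl3, a core protein near the catalytic center, had 634 and 671 in DMSO, 911 and 869 in ET-3 and 760 and 736 in NT libraries. It rose by 0.45 ± 0.05 under ET-3 and 0.20 ± 0.05 under NT on the log2 scale, and was lower under NT than under ET-3 by a log2 difference of -0.25 ± 0.05 (limma, Benjamini-Hochberg adjusted p = 0.0420). Rpl30 had 259 and 269, 363 and 342, and 350 and 333 in the same order, changes of 0.42 ± 0.06 and 0.37 ± 0.06. Its values under both ligands were alike, with an interval of -0.19 to 0.10 for their difference. The processed pseudogene Rpl37rt (14 and 16, 32 and 28, 22 and 22) rose under ET-3 by 0.95 ± 0.26, and Rpl36al, a paralog of Rpl36a, rose under NT by 0.91 ± 0.34 from values of 18 and 10 to 31 and 22. These low values and the 32.5% and 20.2% of their windows found elsewhere make both uncertain.

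Rpl22 and Rps4l fell under both ligands, and were the cytosolic genes that fell under ET-3. Rpl22 is an RNA-binding protein at the surface of the large subunit, for which Rpl22l1 is the paralog. The values of Rpl22 were 649 and 686 in DMSO, 549 and 534 in ET-3 and 520 and 480 in NT libraries. It fell by 0.30 ± 0.06 under ET-3 (limma, Benjamini-Hochberg adjusted p = 0.00100) and by 0.42 ± 0.06 under NT (adjusted p = 0.000117), and 0.919% of its windows occur in other genes. Rpl22l1 had 154 and 157 in DMSO, 204 and 189 in ET-3 and 170 and 166 in NT libraries. It rose under ET-3 by 0.33 ± 0.09 (adjusted p = 0.00606, limma), and its change of 0.11 ± 0.09 under NT was not called (adjusted p = 0.282). Rps4l, annotated as a transcribed processed pseudogene, had 111 and 105 in DMSO, 63 and 60 in ET-3 and 79 and 88 in NT libraries. It fell by 0.80 ± 0.14 and by 0.37 ± 0.14. Rps4x, a protein-coding gene on the X chromosome, had 382 and 411, 498 and 450, and 404 and 375 and rose under ET-3 by 0.26 ± 0.07. The call of Rps4l under NT was lost when either DMSO or either NT library was left out.

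Among other genes with paralogs, Rpl7 and Rpl7l1 rose under ET-3 by 0.21 ± 0.06 and 0.26 ± 0.05, Rpl36a by 0.28 ± 0.07, Rpl10 by 0.32 ± 0.06 and Rpl39 by 0.43 ± 0.12. The changes of Rps27 (0.25 ± 0.10, adjusted p = 0.0535 in limma) and Rps27l (0.09 ± 0.08) were not called. The stalk proteins Rplp0 and Rplp2 and the small subunit protein Rpsa, which is also known as a laminin receptor, rose by 0.25 ± 0.06, 0.31 ± 0.07 and 0.29 ± 0.06. The third stalk protein, Rplp1, was not called under ET-3 (0.15 ± 0.09, limma adjusted p = 0.165) and was lower under NT, by -0.28 ± 0.09 (adjusted p = 0.0184). Under NT none of the other genes in this paragraph was called, and their log2 changes lay between -0.20 and 0.27.

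In the mitochondrial set the largest rise was that of Mrpl34, a large subunit protein, with values of 110 and 117 in DMSO, 206 and 164 in ET-3 and 162 and 151 in NT libraries. It changed by 0.69 ± 0.12 on the log2 scale under ET-3 (limma, Benjamini-Hochberg adjusted p = 0.000575) and 0.46 ± 0.12 under NT (adjusted p = 0.00710). Mrps6, of the small subunit, had 125 and 118 in DMSO, 192 and 176 in ET-3 and 148 and 152 in NT libraries, changes of 0.59 ± 0.10 and 0.30 ± 0.10. Mrpl20 had 209 and 203, 321 and 290, and 272 and 242, changes of 0.56 ± 0.08 and 0.32 ± 0.08. For all 3 genes the ligand libraries lay above the DMSO libraries, and the ET-3 libraries above those of NT. Their differences between NT and ET-3 were not called, and their calls under NT were lost without DMSO replicate 2 or NT replicate 1.

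Mrpl11 (199 and 209 in DMSO, 284 and 285 in ET-3, 264 and 258 in NT), Mrps18b (180 and 166, 220 and 245, 203 and 210) and Mrps27 (296 and 305, 382 and 380, 375 and 391) rose under both ligands. Their log2 changes were 0.48 ± 0.07 and 0.35 ± 0.07, 0.42 ± 0.09 and 0.26 ± 0.09, and 0.34 ± 0.06 and 0.35 ± 0.06. Mrps27, a pentatricopeptide repeat protein of the small subunit, was the most even of them between the ligands, with an interval of -0.12 to 0.14 for the difference. Mrpl12 rose under ET-3 only by the test, from 374 and 419 to 516 and 467, a change of 0.31 ± 0.07, and had 417 and 387 with NT. Its difference between NT and ET-3 was not called (-0.29 ± 0.07, limma adjusted p = 0.0718).

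A few mitochondrial genes fell. Mrpl17 had 399 and 378 in DMSO, 354 and 344 in ET-3 and 338 and 345 in NT libraries, and fell by 0.15 ± 0.06 and by 0.19 ± 0.06. Mrps14 had 198 and 192, 169 and 174, and 155 and 151. It fell under NT by 0.35 ± 0.08 (limma, Benjamini-Hochberg adjusted p = 0.00425), and its change of -0.18 ± 0.08 under ET-3 was not called (adjusted p = 0.0749). Mrpl41, Mrpl51 and Mrpl24 had log2 changes of -0.33 ± 0.12, -0.21 ± 0.08 and -0.17 ± 0.06 under NT, each called lower. With libraries scaled to their totals only Mrps14 of these 5 genes was still called lower under NT, and Mrpl17 had a change of -0.07 with an adjusted p of 0.311 in limma. The genes with the next highest levels, Mrpl2, Mrpl28 and Mrpl54, were not called in either comparison, with changes of -0.13 to 0.07.

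**Figure D3:**
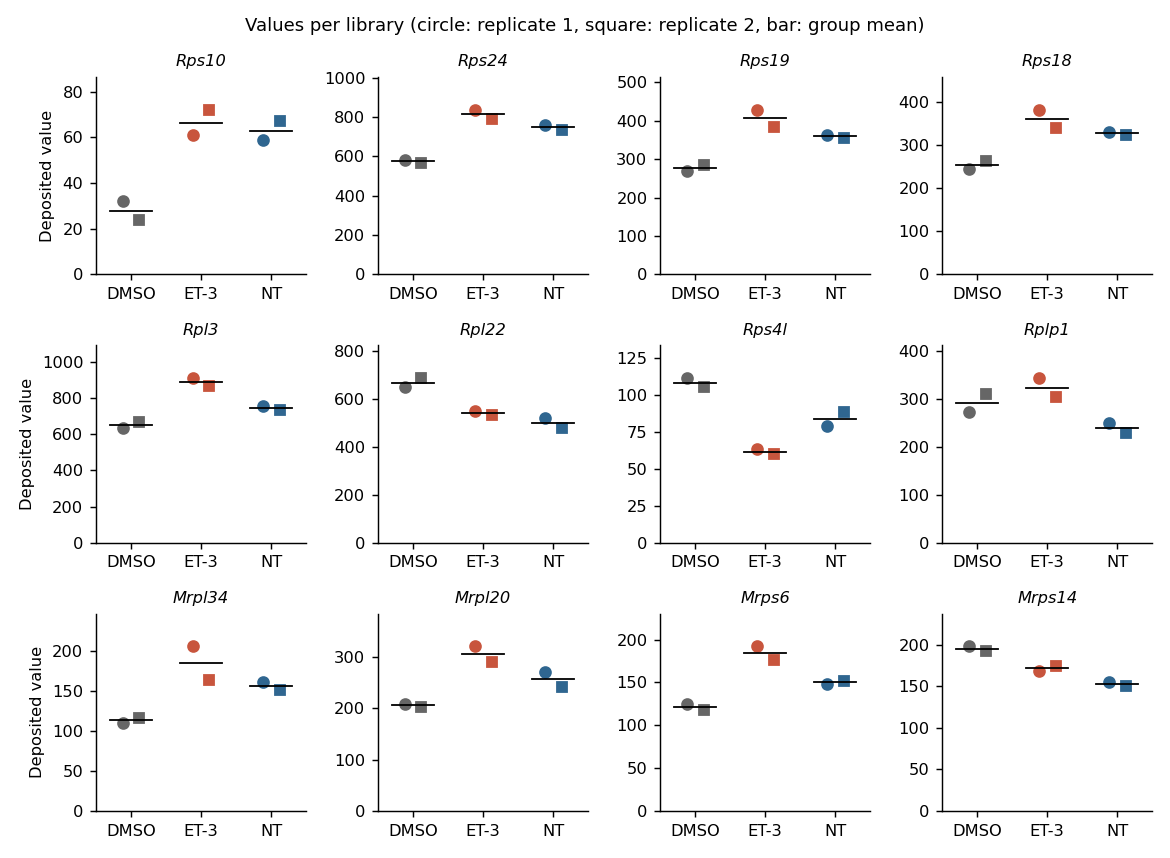
Deposited values per library for 12 ribosomal protein genes. Circles are replicate 1, squares replicate 2 and bars group means; each panel has its own axis from 0. Rps10 rises from 32 and 24 with DMSO to 61 and 72 with ET-3, Rpl22 and Rps4l are lower with both ligands, and Rplp1 is lower with NT (250 and 230) than with ET-3 (344 and 305).

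The test of NT against ET-3 separated the cytosolic genes. Of 85 genes 19 were lower under NT and 0 higher, against 2.05% and 0.647% of all tested genes, and the median log2 difference was -0.26, against 0.03 for all tested genes. Those called included Rpl3, Rpl4, Rpl7, Rpl8, Rpl32, Rpl34, Rpl38, Rplp0 and Rplp1 of the large subunit and Rps2, Rps3a1, Rps9, Rps12, Rps15 and Rpsa of the small subunit. The adjusted p of the genes called lay between 0.0379 and 0.0498, just inside the threshold, and the number called was 0 when any of the 6 libraries was left out, when ET-3 and NT libraries were fitted alone, and after removal of a trend against coverage. In the mitochondrial set 1 gene was lower, Mrps26, which had 285 and 260 in ET-3 against 217 and 218 in NT libraries, and the median was -0.10.

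Values for the genes of highest level in this comparison were as follows. Rplp1 had 273 and 312 in DMSO, 344 and 305 in ET-3 and 250 and 230 in NT libraries. Rps15, of the head of the small subunit, had 334 and 386, 405 and 379, and 311 and 284. Rpl8 had 640 and 701, 776 and 735, and 603 and 555. The ET-3 libraries lay above the NT libraries in all 3 genes, whereas the DMSO libraries overlapped with those of ET-3 in Rplp1 and Rps15. The log2 differences of NT against ET-3 were -0.43 ± 0.09, -0.40 ± 0.08 and -0.38 ± 0.06. Rpl8 and Rpl4, another large subunit protein (986 and 1059, 1206 and 1147, 960 and 889), were called higher under ET-3 by 0.17 ± 0.06 and 0.20 ± 0.06, and lower under NT by -0.21 ± 0.06 and -0.15 ± 0.06. Rpl37a and Rps2 were lower under NT, by -0.27 ± 0.08 and -0.20 ± 0.06, and were not called under ET-3. After removal of the trend against coverage the NT change of Rpl4 was 0.03.

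Rplp1 and Rps15 had the highest coverage of all members, and their reads varied little between libraries. The recovered reads of Rplp1 were 278 and 272 in DMSO, 289 and 279 in ET-3 and 292 and 294 in NT libraries, although the NT libraries held up to 1.49 times the reads of the shallowest library. The variance of these 6 numbers was 0.277 times their mean, where repeated sampling of reads at equal depth would give about 1. Rps15 had 340, 337, 340, 347, 364 and 364 reads, with a ratio of 0.436. A ratio under 1 was found in 4 of the 85 cytosolic genes (4.71%), against 544 of the 13921 tested genes (3.91%). Rpl8 and Rpl4, next in coverage, had ratios of 2.08 and 6.18. Rps24, at lower coverage, had 594, 496, 702, 724, 889 and 942, and followed both depth and ligand. Coverage here is per base of all annotated exons, 6256 bases for Rps24 and 499 for Rplp1. Coverage per base of the mRNA was not computed. Summed over the set, the highest number of reads was 1.38 times the lowest for cytosolic and 1.51 times for mitochondrial genes, against 1.49 times for all genes. Since the NT libraries were the deepest and an ET-3 library the shallowest, even reads and lower values under NT are the same measurement, and depth and ligand cannot be told apart here.

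All tested genes followed the same relation in the comparison of NT with ET-3. Genes with at least 0.2 reads per exonic base had a median log2 difference of -0.17, and 223 of 919 were called lower, whereas genes below 0.03 had a median of 0.13 and 2 of 5559 were called lower. The median coverage was 0.157 reads per exonic base for cytosolic, 0.0992 for mitochondrial and 0.0445 for all tested genes. The 26 cytosolic genes with at least 0.2 had a median of -0.30, with 14 called lower, and the 7 mitochondrial genes had -0.11, with 0 called. Between 0.1 and 0.2 the medians were -0.25 for 43 cytosolic, -0.09 for 31 mitochondrial and -0.05 for all 2410 tested genes, and from 0.03 to 0.1 they were -0.17 for 11, -0.07 for 33 and 0.05 for all 5026. In each of these 3 ranges the cytosolic median was thus below that of all tested genes. Whether duplicate reads were removed before counting is not given in the sources used here, and its part in these values was not tested.

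**Figure D4:**
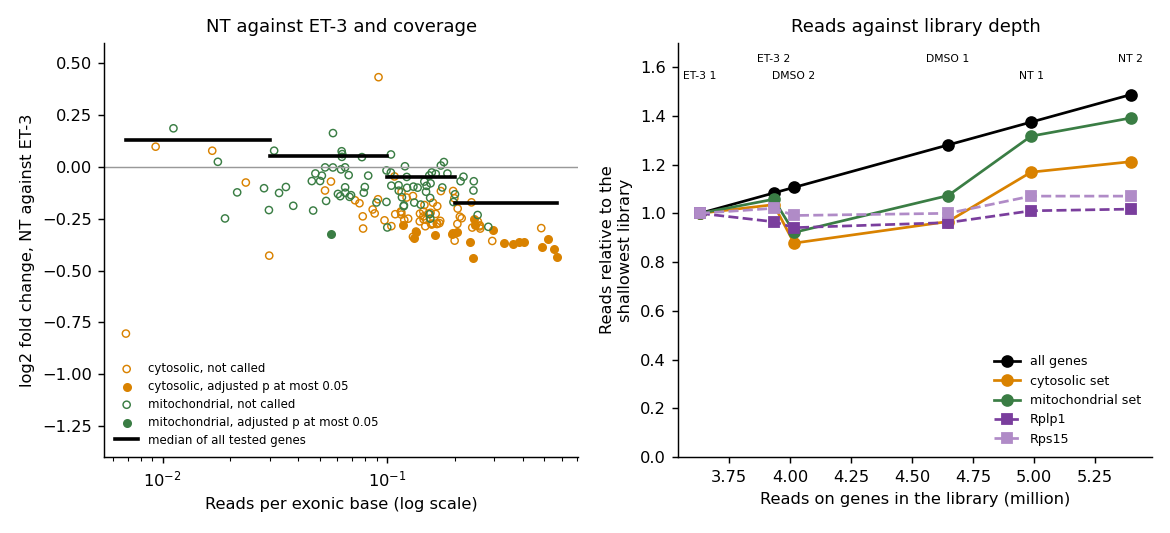
Left, log2 fold change of NT against ET-3 for each tested ribosomal protein gene against its mean reads per exonic base (log axis), with filled points at an adjusted p of at most 0.05 and black bars for the median of all tested genes in 4 coverage ranges. Right, reads in each library relative to the shallowest library (ET-3 replicate 1), against its reads on genes. In NT replicate 2 all genes reach 1.49, the mitochondrial set 1.39 and the cytosolic set 1.21, while Rplp1 and Rps15 stay close to 1 in every library.

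Under ET-3 against DMSO the relation to coverage ran the other way. From the lowest to the highest coverage range the medians of all tested genes were -0.24, 0.01, 0.10 and 0.13, and 1044 of 2410 and 447 of 919 genes in the upper ranges were called higher, so that well-covered genes in general rose more often than the 30.6% over all genes. The 26 cytosolic genes with at least 0.2 reads per exonic base had a median log2 fold change of 0.20 under ET-3, with 17 called higher, and the 43 genes between 0.1 and 0.2 had 0.27, with 31 called higher. The cytosolic medians thus lay above those of all tested genes in the same ranges. These ranges are per base of all annotated exons, which can exceed the length of the mRNA. They therefore cannot show whether the difference holds at like coverage of the mRNA. Under NT the same cytosolic groups had medians of -0.14, with 7 of 26 called lower, and 0.02, against -0.08, with 378 of 919 called lower, and 0.02 for all tested genes. Of the 10 cytosolic genes lower under NT, 7 were thus in the range of highest coverage.

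Neither read sharing nor the pyrimidine run split the cytosolic set by direction. The 20 cytosolic genes with at most 10% of windows in other genes had a median log2 fold change of 0.21 under ET-3, with 13 higher and 2 lower, and the 65 others 0.27, with 46 higher. Under NT these medians were -0.04 and 0.00. The 31 tested cytosolic genes with a pyrimidine run had a median of 0.28 under ET-3 and of 0.03 under NT, and the 32 without one 0.26 and 0.00.

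Most genes that build ribosomes rose under each ligand. Of 61 ribosome biogenesis factors, 51 were higher and 1 lower under ET-3 (median log2 fold change 0.48), against 30.6% and 33.2% of all tested genes. Under NT 44 were higher and 1 lower (0.34), against 29.7% and 32.5%. Polr1b, a subunit of RNA polymerase I, had values of 379 and 336 in DMSO, 696 and 684 in ET-3 and 721 and 722 in NT libraries, changes of 0.95 and 1.01 on the log2 scale. Dkc1, the pseudouridine synthase of small nucleolar ribonucleoproteins, rose by 0.91 and 0.73, and Imp4, a factor of the small subunit precursor, by 0.90 under each ligand. The gene that fell was Rrp12, with 972 and 847 in DMSO, 680 and 673 in ET-3 and 692 and 708 in NT libraries. The biogenesis factors had a median coverage of 0.158 reads per exonic base, against 0.157 for the cytosolic ribosomal proteins. Both are per base of all annotated exons, so that coverage of the mRNA can differ. Its part in these changes was not tested.

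Of 43 translation factors tested, 26 were higher and 0 lower under ET-3 (median 0.19), and 7 and 7 under NT (median -0.03). For this and the next 2 lists, the shares over all tested genes were 30.6% higher and 33.2% lower under ET-3. Under NT they were 29.7% and 32.5%. In NT against ET-3, 17 were lower, where 2.05% of all tested genes were, with adjusted p between 0.0379 and 0.0485 in limma, as close to the threshold as for the ribosomal proteins. The median coverage of this list was 0.213 reads per exonic base, in the range where 223 of 919 genes were called lower. Pabpc1, the poly(A) binding protein, had 1310 and 1421 in DMSO, 1999 and 1908 in ET-3 and 1638 and 1541 in NT libraries, and rose by 0.52 and 0.22. Of 14 other TOP mRNAs, a list that holds Rack1 and overlaps with the translation factors, 7 were higher and 0 lower under ET-3 (median 0.17), and 3 higher and 5 lower under NT (median -0.08). Eef1a1, the elongation factor that delivers aminoacyl-tRNA, had 853 and 973, 1053 and 975, and 791 and 724. Its change of 0.15 under ET-3 was not called, and it was lower under NT, by -0.27. Of 8 ribosomal proteins whose symbols the rule does not find, 6 were higher under ET-3 and 2 under NT, with 0 lower. Rack1 of the small subunit had 948 and 1017, 1197 and 1121, and 962 and 913, and rose under ET-3 by 0.24.

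Of 31 tested factors that assemble and serve the mitochondrial ribosome, a list that holds the member Mrpl58, 7 were higher and 7 lower under ET-3 (median 0.04) and 8 and 4 under NT (median 0.02). These shares were below those of all tested genes in each direction. Fastkd2, which binds the large ribosomal RNA of mitochondria, had 245 and 222 in DMSO, 363 and 329 in ET-3 and 333 and 325 in NT libraries, and rose by 0.57 and 0.49. Tfb1m, which methylates the small one, had 92 and 73, 50 and 33, and 45 and 34, and fell by 0.99 and by 1.05. Nsun4, another methyltransferase of the small ribosomal RNA, had 284 and 272, 169 and 177, and 192 and 184, and fell by 0.68 and by 0.56.

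**Figure D5:**
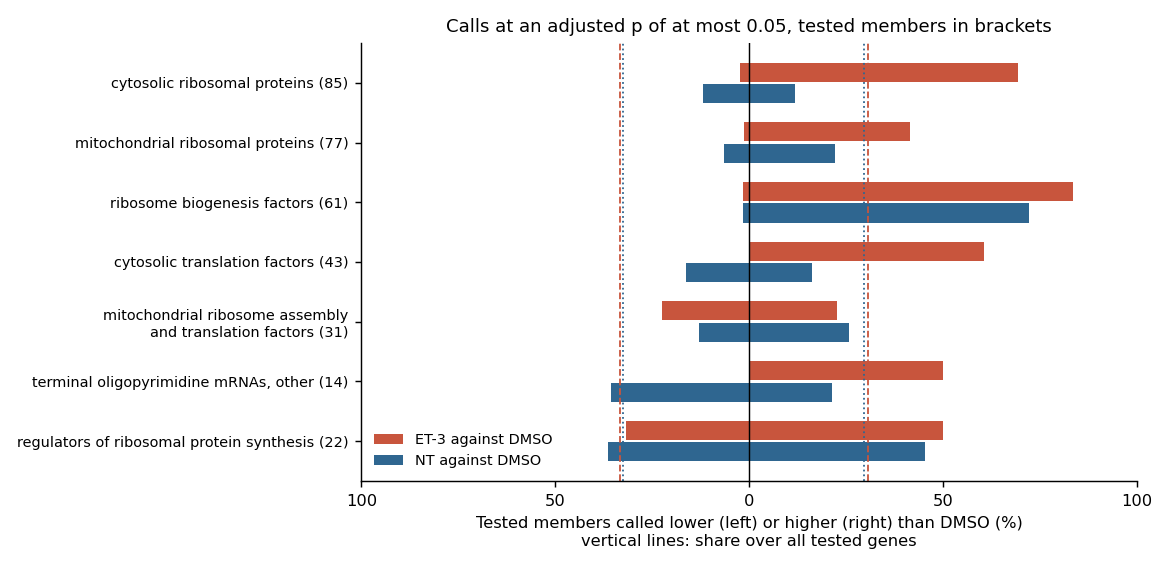
Percent of tested members called lower (left of 0) or higher (right of 0) than DMSO at an adjusted p of at most 0.05, for both ribosomal protein sets and 5 lists of related genes, with the number of tested members in brackets. Red bars are ET-3 and blue bars NT, and vertical lines mark the shares over all tested genes (30.6% higher and 33.2% lower under ET-3, 29.7% and 32.5% under NT). On the right, biogenesis factors and regulators pass these lines for both ligands. Both ribosomal protein sets, the cytosolic translation factors and the other TOP mRNAs pass them for ET-3 and not for NT.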

How the data were processed

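RNA-seq of 6 MuSC libraries was examined, 2 per group, grouped by their labels. Per the methods, the authors aligned single-end reads to mm10 and counted them on exons. They left out reads with several alignments and reads on several genes. The submitters' processing notes list Trimmomatic 0.38, STAR 2.7.7a, featureCounts 1.6.5 and DESeq2 1.30.0. The library kit in the labels differs from that in the methods, so that use of strand is not known. The deposited values are a read signal, whole numbers that were counts scaled by 1 factor per library. They were therefore tested with limma 3.58.1 (R 4.3.3; lmFit, eBayes with a mean-variance trend, 2-sided) on log2(value + 1) and not with a count test, without further scaling. All 6 libraries entered 1 fit, limited to genes whose mean value was 5 or more, and p-values were adjusted over 13921 genes in each of 3 comparisons. 5022 genes were left out. The pseudocount makes the fold changes of genes with low values too small. Factors were estimated from how often each whole number occurs. In DMSO replicate 2 and both ET-3 libraries 38, 48 and 25 whole numbers cannot arise from any count, and 0 genes lay at them. The factor of DMSO replicate 1 is the least certain. Exonic lengths came from GENCODE, matched for 18920 of 18943 genes. They are the union of the exons of all annotated transcripts, which can exceed the length of the mRNA. Levels (RPKM) are reads per exonic kilobase relative to the library total. The labels give no batch.

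The members, the gene lists, tests and alternatives were chosen with earlier results of these data known. Named members are the 5 with the largest called change per set, direction and ligand, those past 2-fold, those called in NT against ET-3, the 5 highest per kilobase, and fixed paralogs, stalk proteins and Rpsa. A few genes that this rule names are not reported here. The lists hold other ribosomal proteins, biogenesis, translation, mitochondrial assembly and TOP genes, regulators, and markers of muscle and other cells. The fit was tested on simulated data. Tables were made in Python 3.11.15 (pandas 2.3.3, numpy 2.4.6) and plots with matplotlib 3.10.9.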

Additional observations from a re-analysis of the deposited data

How the results depend on the processing

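The direction of the cytosolic and mitochondrial medians held in every alternative run, apart from the cytosolic median of NT against DMSO. This was -0.01 (-0.044 to 0.039 with 1 library left out) and became 0.10 with libraries scaled to their totals, 0.10 with voom on recovered reads and 0.039 without DMSO replicate 2, and the NT change of Rpl4 became 0.026 after removal of a trend against coverage. The cause was not tested. Averaging the libraries of each ligand left fewer samples. It gave 8 higher and 1 lower cytosolic and 5 and 0 mitochondrial genes under ET-3, 1 and 0 cytosolic and 0 and 0 mitochondrial genes under NT, and 0 lower of either set in NT against ET-3. Removal of the coverage trend gave 39 higher cytosolic and 3 lower mitochondrial genes under ET-3, 6 lower cytosolic and 11 higher mitochondrial genes under NT, and 0 and 0 lower in NT against ET-3. Library totals and voom, which shift all genes, gave 28 and 29 higher and 1 and 1 lower cytosolic genes under NT, 33 and 34 higher and 1 and 1 lower mitochondrial genes under NT, 0 and 0 lower mitochondrial genes under ET-3, and in NT against ET-3 31 lower cytosolic genes with voom, and 0 and 2 lower mitochondrial genes. No filter gave 6 lower cytosolic and 2 lower mitochondrial genes under NT and 0 lower in NT against ET-3. A mean of at least 20 gave 33 and 2 lower in that comparison, and a pseudocount of 0.5 gave 10 and 0 there and 2 lower mitochondrial genes under ET-3. The upper quartile gave 3 lower mitochondrial genes under NT. Fits of 2 groups alone gave 0 lower mitochondrial genes under ET-3, and 0 and 0 lower in NT against ET-3.

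Leaving out 1 library at a time gave 32 to 55 higher and 2 to 2 lower cytosolic and 18 to 24 higher and 0 to 1 lower mitochondrial genes under ET-3. Under NT it gave 5 to 9 higher and 1 to 11 lower cytosolic and 3 to 16 higher and 1 to 4 lower mitochondrial genes, and in NT against ET-3 0 lower of either set. A lone library is then assumed to vary like those of the other groups.

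Same-numbered libraries did not deviate together (r = -0.01, -0.07 and -0.02 between groups). With 2 libraries per group this cannot show whether same-numbered libraries shared an animal or a culture. With a replicate block 0 cytosolic and 0 mitochondrial genes were lower in NT against ET-3. The depth was between 3628891 and 5396233 reads on genes, and reads were few for Rps10, Rpl36al and Rpl37rt. The median standard error was 0.07 for cytosolic and 0.08 for mitochondrial log2 changes. It rests on the spread between libraries as moderated by limma, and the part of depth in it was not tested.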

Other observations

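Of 22 regulators of ribosomal protein synthesis, 11 were higher and 7 lower under ET-3 (median log2 fold change 0.17), where 30.6% and 33.2% of all tested genes were. Under NT 10 were higher and 8 lower (0.13), against 29.7% and 32.5%. Myc, a transcription factor that drives ribosome production, had values of 542 and 506 in DMSO, 838 and 782 in ET-3 and 724 and 712 in NT libraries, and rose by 0.63 and 0.45 on the log2 scale. Eif4ebp2, a repressor of cap-dependent translation, had 802 and 749, 1295 and 1270, and 1196 and 1214, and rose by 0.73 and 0.64. Larp1, which binds TOP mRNAs, rose by 0.24 and 0.15. The kinase Mtor had 985 and 991, 712 and 793, and 815 and 788, and fell by 0.39 and by 0.30. Tsc1 and Tsc2 of this list had log2 changes of -0.42 and -0.41 under ET-3 and of -0.35 and -0.34 under NT, all called. Rptor rose by 0.22 and 0.19. Mlst8 was called higher under ET-3 only, by 0.21, and Rictor and Rheb were not called. Rps6kb1 and Rps6kb2, the kinases of ribosomal protein S6, had log2 changes of -0.66 and -0.78 under ET-3 and of -0.58 and -0.75 under NT, all called. Ppargc1a, a coactivator of mitochondrial genes, had 70 and 62 in DMSO, 14 and 14 in ET-3 and 21 and 22 in NT libraries, and fell, with log2 changes of -2.16 and -1.57. Its relative Pprc1 rose by 0.34 and 0.33. These are mRNA values and hold no measure of kinase activity or of translation.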
